A study of Danio rerio with 6 samples.

Results

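Tc1/Mariner elements are DNA transposons that move by cut and paste. Their transposase binds the inverted repeats at the ends of an element, cuts it out and inserts it at a TA dinucleotide. Fish genomes hold many old, inactive copies of these elements, and the Sleeping Beauty transposon was rebuilt from such copies of salmonid fish. Many families, marked with an N in their Repbase-style name, are non-autonomous, which means that they carry no intact transposase gene and depend on that of another family.

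Tc1/Mariner families were taken as all families annotated as class DNA with a superfamily name that begins with TcMar and at least 10 counts summed over the 6 libraries. This gave 101 families of 1117 DNA transposon families, 2384 transposable element (TE) families and 35218 counted features in all. By superfamily, 54 were TcMar-Tc1, 18 TcMar-ISRm11, 13 TcMar with no further name, 7 TcMar-Fot1, 3 TcMar-Tc2, 2 TcMar-Tigger, 2 TcMar? and 2 TcMar-Stowaway?, where the question mark is the annotation's own. The names of 45 families carry an N. A further 3 TcMar families had fewer than 10 counts and are not members. The 2 members with the fewest counts were DNA2-1_DR (20 counts) and Mariner-N10_DR (28 counts), and just outside the limit lay Mariner-N45_DR (8 counts) and Mariner-N17_DR (1 count).

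Zygotes of wild-type, Tübingen strain zebrafish were injected with 4.5 ng of a morpholino (MO) that blocks translation of most FiNZ zinc finger genes (FZNFs), or with the same amount of a scrambled MO, which is a mixture of random sequences. FZNFs are a fish family of zinc finger proteins that the study considered as candidate repressors of TEs, and the comparison asks whether TE transcripts change when their translation is blocked. Whole embryos were collected at shield stage, 6 h after fertilization, as 3 FZNF MO and 3 scrambled MO libraries of poly(A) RNA. Replicates 1 and 2 were collected on 12 May and replicate 3 on 17 May. Same-numbered libraries were taken to come from one round of injections, which is an assumption, and are called pairs below. A translation-blocking MO need not lower the level of its target's transcript, so the counts cannot show how far FZNF protein fell.

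Libraries held 16306069 to 20567549 counts. Of 10 shield stage markers, the enveloping layer keratin krt4 had 3600 to 3793 CPM with the FZNF MO and 3564 to 4105 CPM with the scrambled MO. The other 9 (gsc, chrd, noto, tbxta, tbx16, sox17, sox32, vox and mxtx2) summed to 2416, 1485 and 1614 CPM in FZNF MO replicates 1 to 3, against 1818, 1457 and 1577 CPM in scrambled MO replicates 1 to 3. FZNF MO replicate 1 stood apart, as the highest of the 6 libraries for 6 of these 9 markers, tbxta among them (845 CPM in that library and 433 to 605 CPM in the others). None of the 10 was called, and at an unadjusted p under 0.05 tbx16 was higher and sox17 lower with the FZNF MO. The same library had the lowest Tc1/Mariner share, and the part of this in the results below was not tested beyond the fits without it. The 6 genes of later tissues (globin, muscle, lens, insulin and glial genes) summed to 0.53 to 1.14 CPM with the FZNF MO and 0.47 to 1.78 CPM with the scrambled MO. CPM are counts scaled to a common library size with TMM factors, and they are not divided by length, so levels are compared between libraries and an order of families is an order of reads, not of molecules. A family's count is the sum over all its copies. Reads from copies inside the introns or untranslated ends of genes cannot be told apart from reads of the element's own transcripts, and reads that match several families could be shared among them. In whole embryos, fewer cells of a type and less RNA per cell cannot be told apart either.

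Stretches of consensus sequence, in the orientation of the consensus, were at hand for 25 of the 101 families. Each is a match in the study's motif searches, with zinc finger binding motifs that include shuffled and human ones. The families and stretches were thus picked by those motifs. The stretches are fragments, and the other families are named only. The following are shown because they belong to families that the results turn on, or because 2 families share them. Capitals mark a perfect tandem repeat in the first 3 and the part shared with the other family in the Mariner-N5_DR and Mariner-N5B_DR lines, and the last 2 have none.
DNA9TA1_DR: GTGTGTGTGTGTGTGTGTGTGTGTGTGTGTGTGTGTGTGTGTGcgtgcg
DNA-N43_DR: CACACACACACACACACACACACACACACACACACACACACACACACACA
TC1DR3: GGTGGTGGTGGTG
Mariner-N5_DR: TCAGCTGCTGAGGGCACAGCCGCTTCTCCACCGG
Mariner-N5B_DR: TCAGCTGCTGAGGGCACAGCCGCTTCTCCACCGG
Mariner-21_DR: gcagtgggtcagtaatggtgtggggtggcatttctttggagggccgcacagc
Mariner-N10_DR: gtgaggcgttggaggcggcagcgggaag

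The 34 bases shown for Mariner-N5_DR and Mariner-N5B_DR are identical. The stretch of DNA9TA1_DR holds 43 bases of an uninterrupted GT repeat, and that of DNA-N43_DR is a CA repeat over all its 50 bases. Of the 25 families, 8 had at least 1 stretch that was a tandem repeat of units of at most 3 bases (at least 80% identity between shifted copies). Simple repeats of these kinds also occur outside transposons.

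Tc1/Mariner families together made up 0.299%, 0.370% and 0.405% of all counts in replicates 1, 2 and 3 of the FZNF MO, against 0.309%, 0.362% and 0.376% in replicates 1, 2 and 3 of the scrambled MO. Both replicate 1 libraries were the lowest and both replicate 3 libraries the highest, and the groups overlapped. The mean share was 0.358% ± 0.0539 with the FZNF MO and 0.349% ± 0.0354 with the scrambled MO (SD, n = 3 each), and 2 of the 3 pairs had the higher value with the FZNF MO (2-sided exact permutation test, p = 0.9, and sign-flip test over the pairs, also exact, p = 0.75). With 3 libraries a group these tests cannot go below 0.1 and 0.25. The difference of 0.009 percentage points was 0.018 without pair 1 and turned to -0.0012 without pair 3, and as a part of TE counts the Tc1/Mariner share was lower with the FZNF MO, by a difference of -0.21 percentage points, with 1 of 3 pairs higher (exact permutation test, p = 0.5). The exact 95% binomial interval was 0.297% to 0.301% for FZNF MO replicate 1 and 0.306% to 0.311% for scrambled MO replicate 1. These intervals hold counting error alone, and were much narrower than the spread between replicates.

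As a part of all DNA transposon counts, Tc1/Mariner families took 7.75%, 8.13% and 7.95% in FZNF MO replicates 1 to 3, against 7.50%, 8.11% and 8.04% in scrambled MO replicates 1 to 3. The 2 sets of shares overlapped almost wholly, and the difference of 0.06 percentage points was within the spread between replicates (2-sided exact permutation test, p = 0.8, and sign-flip test, p = 0.75). Of the counts of Tc1/Mariner and hAT families together, hAT being another large superfamily of zebrafish DNA transposons, the Tc1/Mariner share was 25.9% ± 0.62 with the FZNF MO and 25.0% ± 0.96 with the scrambled MO (SD, n = 3 each). All 3 pairs had the higher share with the FZNF MO, and the groups overlapped (2-sided exact permutation test, p = 0.3, and sign-flip test, p = 0.25).

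**Figure D1:**
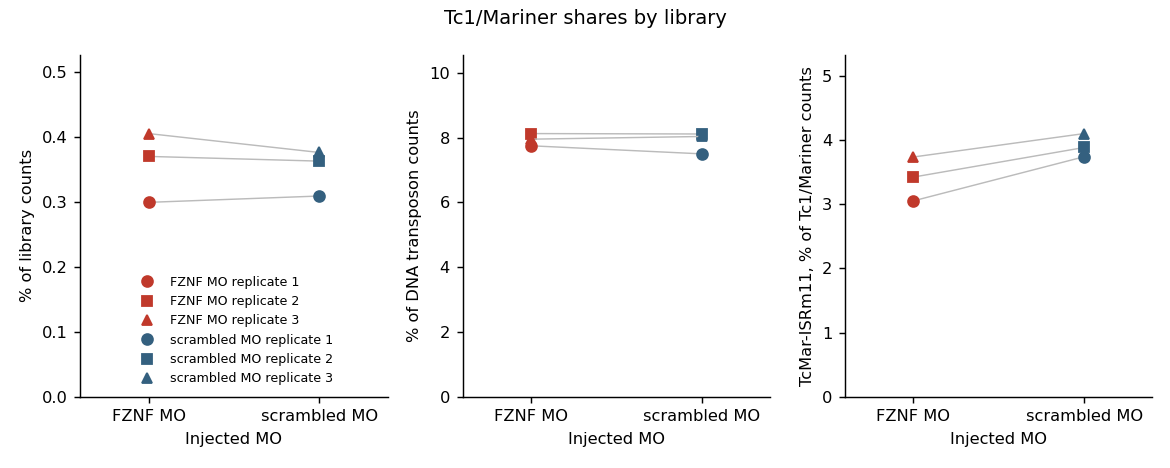
Share of counts by library, with the FZNF MO left and the scrambled MO right. The panels show Tc1/Mariner counts in percent of all counts, Tc1/Mariner counts in percent of DNA transposon counts, and TcMar-ISRm11 counts in percent of Tc1/Mariner counts. Each symbol is a library, and grey lines join the libraries of a pair. The first 2 shares overlap between groups, and the TcMar-ISRm11 share is lower with the FZNF MO in 3 of 3 pairs. Its exact permutation test gave p = 0.1, and 0.533 after Benjamini-Hochberg adjustment over 8 superfamilies.

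Transcript levels were very uneven. Of the 101 families, 7 had a mean of 100 CPM or more, 35 of 10 to under 100, 45 of 1 to under 10 and 14 of under 1, and the median family had a mean of 7.22 CPM. The 6 families of highest mean CPM took 60.2%, 61.2% and 59.1% of the Tc1/Mariner counts in FZNF MO replicates 1 to 3, against 58.1%, 61.0% and 59.4% in scrambled MO replicates 1 to 3. These shares overlapped between the groups (2-sided exact permutation test, p = 0.5).

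The highest level was that of Mariner-N38_DR, a non-autonomous TcMar-Tc1 family, at 528, 506 and 639 CPM in FZNF MO replicates 1 to 3, against 439, 569 and 576 CPM in scrambled MO replicates 1 to 3. The groups overlapped (log2 fold change 0.08, SE 0.11, adjusted p = 0.725). This and each adjusted p below come from edgeR, by the quasi-likelihood test and with Benjamini-Hochberg adjustment over all tested features. TDR2, a zebrafish Tc1-like family, had 448, 550 and 585 CPM with the FZNF MO, against 460, 587 and 564 CPM with the scrambled MO. TC1DR3, another Tc1-like family, had 319, 466 and 496 CPM with the FZNF MO, against 348, 475 and 459 CPM with the scrambled MO. Both families were lowest in the replicate 1 libraries of both groups, and their estimates lay close to 0 (log2 fold changes of -0.03, SE 0.10, adjusted p = 0.913 for TDR2 and -0.01, SE 0.10, adjusted p = 0.957 for TC1DR3).

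EnSpm-N17_DR, which bears the name of another DNA transposon superfamily but is annotated as TcMar, had 183, 307 and 269 CPM in FZNF MO replicates 1 to 3, against 178, 209 and 242 CPM in scrambled MO replicates 1 to 3. All 3 pairs had more with the FZNF MO, pair 2 most, and did not pass the test (log2 fold change 0.25, SE 0.12, adjusted p = 0.278). TZF28B, of the TcMar-Tc1 superfamily, had 147, 252 and 238 CPM with the FZNF MO, against 162, 207 and 195 CPM with the scrambled MO (log2 fold change 0.14, SE 0.12, adjusted p = 0.554). TC1DR2, also TcMar-Tc1, had 157, 220 and 175 CPM with the FZNF MO, against 172, 192 and 180 CPM with the scrambled MO (log2 fold change 0.01, SE 0.11, adjusted p = 0.977). In TZF28B and TC1DR2 the lowest and the highest library were both FZNF MO libraries. DNA-N43_DR, the leading TcMar-Fot1 family and the owner of the CA repeat shown above, had 134, 112 and 164 CPM with the FZNF MO, against 139, 128 and 151 CPM with the scrambled MO (log2 fold change -0.04, SE 0.11, adjusted p = 0.892).

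**Figure D2:**
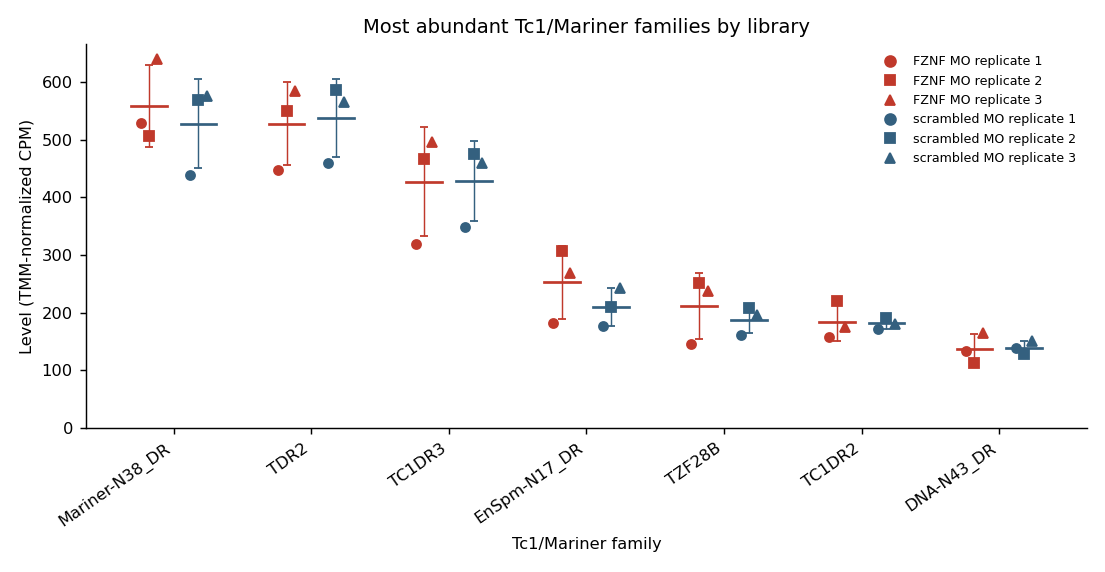
Level of the 7 Tc1/Mariner families with a mean of 100 CPM or more, in TMM-normalized CPM. Symbols are single libraries (circle, square and triangle for replicates 1, 2 and 3), horizontal bars the mean and thin bars the SD, with the FZNF MO left of the scrambled MO. The 2 groups overlap in each of the 7 families.

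A share of the variation followed the replicate number, which was taken to mark the round of injection. In 34 of the 92 families that passed the filter on low counts (37.0%), both replicate 1 libraries were the 2 lowest of the 6, against 13.3% of all 17804 tested features. Both replicate 3 libraries were the 2 highest in 19 families (20.7%), against 7.72% of all tested features. In summed counts this order was not particular to Tc1/Mariner families. The hAT families took 0.889%, 1.037% and 1.14% of all counts in FZNF MO replicates 1 to 3. With the scrambled MO their shares were 0.982%, 1.048% and 1.099%, so replicate 1 was again lowest and replicate 3 highest in both groups. The number of hAT families with this order was not counted. Replicates 1 and 2 were collected on the same day and replicate 3 alone on the later one, where day and round cannot be told apart. The cause of this order was not tested. Summed over the 101 families, levels were 2962, 3759 and 4061 CPM in FZNF MO replicates 1 to 3, against 3029, 3672 and 3735 CPM in scrambled MO replicates 1 to 3.

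Of the 101 families, 92 passed the filter and were tested. A family was called where the adjusted p was under 0.05 and the log2 fold change reached 0.32 in either direction. edgeR called 0 of the 92 families higher and 0 lower with the FZNF MO. Over all tested features it called 5.45%, that is 3.27% higher and 2.18% lower, with 185 of 518 FZNFs among the called. Of the 933 other tested DNA transposon families it called 16, and 8 of these were among the 393 hAT families. At an unadjusted p under 0.05 there were 5 families, 4 of them higher and 1 lower, against 19.7% of all tested features (10.4% higher and 9.24% lower), and DESeq2 also called 0 families, with 4 higher and 0 lower at that p. The smallest adjusted p of a family was 0.0978.

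The median log2 fold change of the 92 families was -0.02 and the middle 50% lay between -0.24 and 0.22, with extremes of -1.21 and 1.39. The medians were -0.02 for the other 933 tested DNA transposon families, -0.02 for the 393 hAT families among them, 0.23 for 578 long terminal repeat (LTR) retrotransposon families, 0.04 for all 1947 TE families and -0.01 for all tested features. By pair, the median log2 ratio of the Tc1/Mariner families was -0.12, 0.03 and 0.09 in pairs 1, 2 and 3, and that of the LTR families 0.16, 0.18 and 0.32. The Tc1/Mariner median thus changed sign between pairs and lay below the LTR median in 3 of 3 pairs. In 21 families the FZNF MO library was higher in 3 of 3 pairs and in 11 it was lower in 3 of 3, against 21% and 21.6% of all tested features. The groups did not overlap in 5 families that were higher and 2 that were lower with the FZNF MO, against 8.47% of all tested features in each direction.

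**Figure D3:**
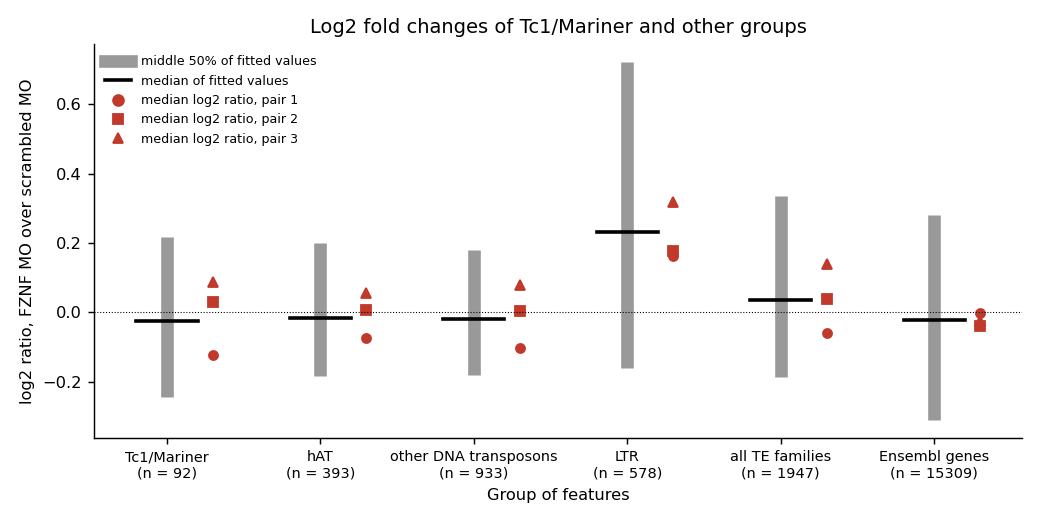
Log2 ratio of FZNF MO over scrambled MO by group of features. Grey bars span the middle 50% of the fitted log2 fold changes, black lines are their medians, and red symbols are the medians of the log2 ratios within pairs 1, 2 and 3. The Tc1/Mariner median of -0.02 lies beside those of hAT and the other DNA transposons, and that of LTR families is 0.23.

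The intervals tell which sizes of change were compatible with the counts of a family. They are not adjusted for the number of tests, so one that leaves out 0 is not a call. The 95% interval of the log2 fold change lay between -1 and 1 for 55 of the 92 families and between -0.5 and 0.5 for 22. Its upper end was under 1 for 71 families and under 0.5 for 46, so an increase to at least double the level lay outside the interval of 71 families. For Mariner-N38_DR the interval ran from -0.15 to 0.32, for TDR2 from -0.23 to 0.18 and for TC1DR3 from -0.23 to 0.20. Among families of few counts the intervals were too wide to tell a change of that size from none.

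**Figure D4:**
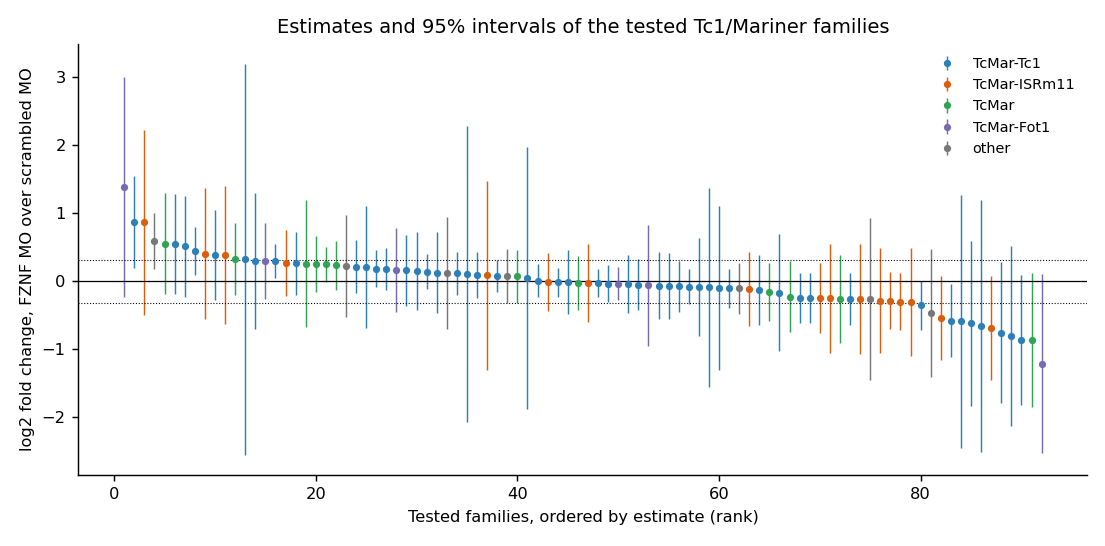
Log2 fold change of the 92 tested Tc1/Mariner families, FZNF MO over scrambled MO, ordered by estimate and coloured by superfamily, with 95% intervals as vertical lines. Dotted lines mark -0.32 and 0.32, the fold threshold for a call. Estimates run from 1.39 to -1.21, none was called, and intervals are widest for families of few counts.

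Among families that averaged 50 counts or more and had the same sign in each of the 3 pairs, the 6 largest estimates upward were those of Mariner-21_DR, Mariner-18_DR, Mariner-N5_DR, Mariner-8_DR, Mariner-N32_DR and DNA9TA1_DR. Mariner-21_DR, a TcMar-Tc1 family, had 6.41, 10.7 and 9.11 CPM in FZNF MO replicates 1 to 3, against 5.56, 3.72 and 4.92 CPM in scrambled MO replicates 1 to 3. Each FZNF MO library was above each scrambled MO library, and the log2 fold change was 0.87 (SE 0.31, 95% interval 0.19 to 1.55, unadjusted p = 0.016, adjusted p = 0.134). Without the libraries of pair 1, edgeR called it higher, at a log2 fold change of 1.21 and an adjusted p of 0.0489, and no family other than Mariner-21_DR was called in that fit. Of all features, the fit without pair 1 called 713 of 17918. With only FZNF MO replicate 1 left out, in a fit with no pairing, its log2 fold change was 1.07 (adjusted p = 0.217). That fit called 0 families and only 249 of 18449 features, so the 0 tells little. Over all the alternatives tried, the adjusted p of Mariner-21_DR ranged from 0.0489 to 0.713.

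Mariner-18_DR, of the TcMar-Tc2 superfamily, had the smallest p of the 92 families. It stood at 20.3, 22.6 and 31.5 CPM with the FZNF MO, against 16.8, 12.0 and 20.9 CPM with the scrambled MO, and the highest scrambled MO library lay above the lowest FZNF MO library. Its log2 fold change was 0.59 (SE 0.19, 95% interval 0.18 to 1.01, adjusted p = 0.0978, from 0.0505 to 0.857 over the alternatives). DNA9TA1_DR, the TcMar-Tc1 family with the GT repeat, had 24.0, 39.5 and 39.98 CPM with the FZNF MO, against 19.9, 29.5 and 25.5 CPM with the scrambled MO (log2 fold change 0.45, SE 0.16, adjusted p = 0.137). Like the sum over families, it was lowest in both replicate 1 libraries. TDR1, a zebrafish Tc1-like family, was chosen after its values were seen because its unadjusted p was under 0.05. It had 80.35, 96.9 and 107 CPM with the FZNF MO, against 67.8, 79.1 and 84.85 CPM with the scrambled MO, with log2 ratios of 0.24, 0.29 and 0.34 in pairs 1, 2 and 3 (log2 fold change 0.29, SE 0.11, adjusted p = 0.175). The estimate was alike in the 3 pairs and under the fold threshold.

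Mariner-N5_DR had 3.66, 5.30 and 5.16 CPM in FZNF MO replicates 1 to 3, against 2.58, 2.78 and 4.41 CPM in scrambled MO replicates 1 to 3 (log2 fold change 0.55, SE 0.34, adjusted p = 0.410). Mariner-N5B_DR, which shares the 34 bases shown above, had 10.4, 10.7 and 9.77 CPM with the FZNF MO, against 10.1, 8.55 and 6.35 CPM with the scrambled MO (log2 fold change 0.33, SE 0.24, adjusted p = 0.502). All 3 pairs had the higher level with the FZNF MO in both families, neither passed the test, and reads in the shared bases could have been counted for either. Their namesake Mariner-N5C_DR had an estimate of -0.02 (SE 0.18). Mariner-8_DR and Mariner-N32_DR, both TcMar-Tc1, had estimates of 0.55 (SE 0.34) and 0.51 (SE 0.34), with levels under 8 CPM in every library and overlapping groups. Mariner-8_DR had log2 ratios of 0.60, 0.57 and 0.42 in pairs 1 to 3.

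The 6 largest estimates downward under the same rule were those of Mariner-N22_DRe, Mariner-16_DR, Mariner-6_DR, Mariner-N28_DR, Mariner-N34_DR and Tc1-6_DR. Mariner-16_DR, a TcMar-Tc1 family, had 7.66, 6.55 and 5.63 CPM in FZNF MO replicates 1 to 3, against 10.8, 9.34 and 9.33 CPM in scrambled MO replicates 1 to 3. All FZNF MO libraries were below all scrambled MO libraries, with log2 ratios of -0.49, -0.50 and -0.72 in pairs 1 to 3 (log2 fold change -0.58, SE 0.24, unadjusted p = 0.0358, adjusted p = 0.211). Mariner-6_DR had 22.0, 27.6 and 31.7 CPM with the FZNF MO, against 30.2, 41.0 and 32.6 CPM with the scrambled MO (log2 fold change -0.36, SE 0.17, adjusted p = 0.267), and its pair 3 libraries were nearly equal. Tc1-6_DR had 19.9, 24.0 and 23.5 CPM with the FZNF MO, against 29.3, 25.9 and 25.1 CPM with the scrambled MO (log2 fold change -0.26, SE 0.18, adjusted p = 0.465). Its groups did not overlap, with log2 ratios of -0.56, -0.11 and -0.10 in pairs 1 to 3.

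The other 3 were TcMar-ISRm11 families of low level. Mariner-N22_DRe had 1.35, 3.12 and 4.62 CPM with the FZNF MO, against 3.09, 4.30 and 6.35 CPM with the scrambled MO (log2 fold change -0.69, SE 0.35, adjusted p = 0.313). Mariner-N28_DR and Mariner-N34_DR had estimates of -0.30 (SE 0.36) and -0.26 (SE 0.37), with upper ends of the interval at 0.49 and 0.55.

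**Figure D5:**
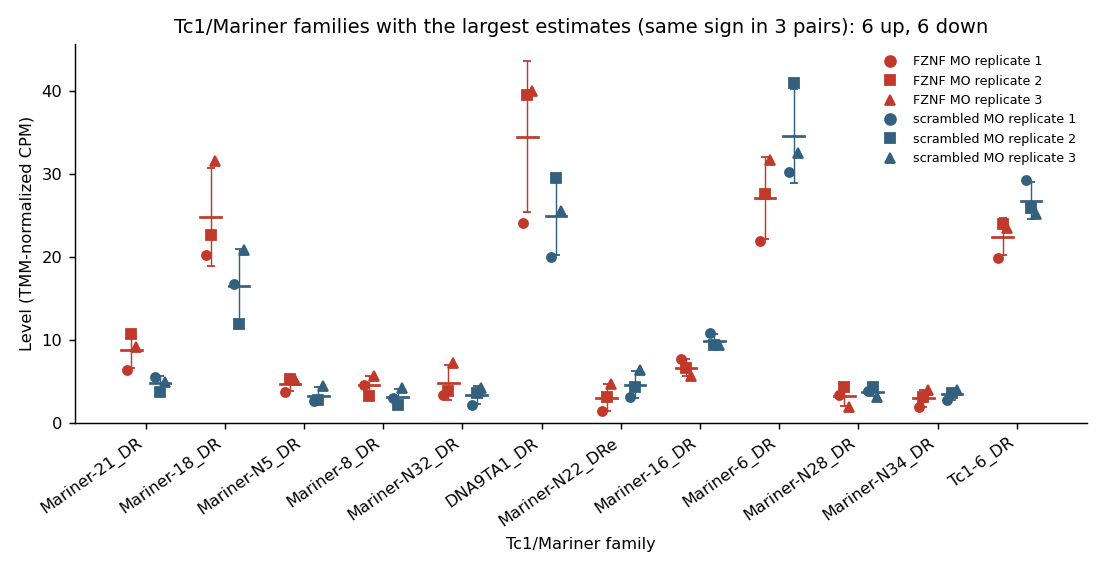
Level, in TMM-normalized CPM, of the 12 families with the largest estimates among those averaging 50 counts or more with the same sign in all 3 pairs, 6 upward on the left and 6 downward on the right. Symbols are single libraries, horizontal bars means and thin bars SDs, with the FZNF MO left of the scrambled MO. The groups do not overlap in Mariner-21_DR, Mariner-16_DR and Tc1-6_DR, and none of the 12 passed the test.

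By superfamily, the median log2 fold change was -0.02 over 50 tested TcMar-Tc1 families, -0.25 over 17 TcMar-ISRm11 families, 0.15 over 12 TcMar families and 0.06 over 6 TcMar-Fot1 families, and 0 families were called in each. TcMar-Tc1 families held 78.8%, 78.7% and 78.8% of the Tc1/Mariner counts in FZNF MO replicates 1 to 3, against 78.2%, 80.9% and 78.7% in scrambled MO replicates 1 to 3. TcMar-ISRm11 families held 3.05%, 3.42% and 3.73% with the FZNF MO, against 3.74%, 3.88% and 4.10% with the scrambled MO. This share was lower with the FZNF MO in 3 of 3 pairs and the groups did not overlap, by a margin of less than 0.01 percentage points between FZNF MO replicate 3 and scrambled MO replicate 1. The mean was 3.40% ± 0.34 with the FZNF MO and 3.91% ± 0.18 with the scrambled MO (SD, n = 3 each). The exact permutation test gave p = 0.1 (2-sided, the smallest that 3 against 3 allow) and 0.533 after Benjamini-Hochberg adjustment over 8 superfamilies, and the exact sign-flip test gave p = 0.25. One direction in 3 of 3 pairs was not particular to TcMar-ISRm11. The TcMar-Fot1 share was also lower in 3 of 3 pairs, and that of TcMar with no further name higher in 3 of 3 (exact permutation tests, p = 0.7 and 0.2). The latter was 10.7%, 11.9% and 10.1% in FZNF MO replicates 1 to 3, against 10.3%, 9.34% and 9.98% with the scrambled MO. Its leading family EnSpm-N17_DR alone held 6.17%, 8.16% and 6.62%, against 5.86%, 5.69% and 6.49%, so most of the difference lay in that family.

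In summed level the TcMar-ISRm11 groups overlapped, at 90.4, 129 and 152 CPM with the FZNF MO, against 113, 143 and 153 CPM with the scrambled MO. Their leading family, Mariner-N23_DRe, had 13.5, 16.0 and 21.2 CPM with the FZNF MO, against 16.9, 24.0 and 21.2 CPM with the scrambled MO (log2 fold change -0.30, SE 0.19, adjusted p = 0.432). The 2 libraries of pair 3 were at the same level and those of the other pairs were not. TcMar-Tc2 families held 0.751%, 0.690% and 0.889% of the Tc1/Mariner counts with the FZNF MO, against 0.717%, 0.397% and 0.666% with the scrambled MO, higher in 3 of 3 pairs (exact permutation test, p = 0.2, and 0.533 after adjustment). Nearly all of these counts came from the 2 tested families, Mariner-18_DR (2196 counts) and Mariner-18N1_DR (348 counts). Mariner-18N1_DR had an estimate in the other direction (log2 fold change -0.46, SE 0.43, adjusted p = 0.607), with log2 ratios of -1.49, 0.27 and -0.15 in pairs 1 to 3.

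Families with and without an N in their name had like medians, -0.04 over 41 tested families and -0.01 over 51. Families with an N held 41.1%, 36.6% and 39.2% of the Tc1/Mariner counts in FZNF MO replicates 1 to 3, against 38.4%, 37.4% and 39.0% in scrambled MO replicates 1 to 3 (2-sided exact permutation test, p = 0.7, and sign-flip test, p = 0.75). All 5 families with an unadjusted p under 0.05 were among the 51 without an N, which is the larger set, against 19.7% of all tested features. The FZNF MO library was higher in 3 of 3 pairs in 12 families with an N and 9 without (21% of all tested features). Groups did not overlap with the FZNF MO higher in 4 with an N and 1 without, and with it lower in 0 and 2. Over all tested features this was 8.47% in each direction. These splits were not tested. A family was sorted by its name alone, so one without an N was not shown to carry a transposase gene. The 8 families with a simple repeat among their consensus stretches had log2 fold changes from -0.29 to 0.45, with a median of -0.02, and DNA9TA1_DR was the highest of them.

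The 9 members below the filter held 20 to 48 counts over the 6 libraries. Mariner-N10_DR, a TcMar-Tc2 family, had 6, 4 and 16 counts in FZNF MO replicates 1 to 3, against 0, 2 and 0 in scrambled MO replicates 1 to 3, so each FZNF MO library was above each scrambled MO library. With no count filter it did not pass the test (adjusted p = 0.487). DNA2-1_DR had 2, 2 and 13 counts with the FZNF MO, against 3, 0 and 0 with the scrambled MO. Most of its counts came from FZNF MO replicate 3. Both families reached the count minimum for members through their FZNF MO counts, so the direction of their counts tells little. With no count filter the log2 fold changes were 3.76 for Mariner-N10_DR, 2.64 for DNA2-1_DR and 0.19 for Mariner-N30_DR. They were -2.41 for Mariner-N39_DR, -1.43 for DNA-TA-1_DR, -0.75 for Mariner-N41_DR, -0.57 for Tc1-8B_DR, -0.14 for TDR18 and -0.05 for Mariner-13_DR. The SEs ran from 1.33 to 3.62. Mariner-N45_DR, outside the members, had 5, 0 and 3 counts with the FZNF MO and 0 in each scrambled MO library, where a count of 0 allows up to 3 counts a library.

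Whether the effect of the FZNF MO varied with the collection day was tested as an interaction, with pair 3 against pairs 1 and 2. edgeR called 0 of the 92 families, against 0.0843% of all tested features, and 2 families had an unadjusted p under 0.05, against 8.08%. They were Tc1-8_DR and Mariner-N33_DR, named after their values were seen. Tc1-8_DR, a TcMar-Tc1 family, had 1.93, 2.43 and 4.26 CPM in FZNF MO replicates 1 to 3, against 5.61, 6.66 and 3.15 CPM in scrambled MO replicates 1 to 3. Its log2 ratios were -1.49, -1.41 and 0.42 in pairs 1 to 3, so the FZNF MO library was lower in both 12 May pairs and higher in the 17 May pair (interaction 1.93, SE 0.76, adjusted p = 0.489). Without pair 3 it was called lower (log2 fold change -1.48, adjusted p = 0.0285), and with all pairs it was not (log2 fold change -0.86, SE 0.44, adjusted p = 0.305). The fit without pair 3 called 1 of 93 Tc1/Mariner families, against 2185 of 18264 features. For Mariner-N33_DR the interaction was 2.45 (SE 1.14, adjusted p = 0.602). The later day is 1 pair, so day and injection round cannot be told apart there. The test for an interaction therefore had little power, and so few features were called in all that 0 of 92 tells little. It does not show that the effect was alike on both days.

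Host genes known from other systems to act on such elements were followed in a list. It covers genes derived from Tc1/Mariner-type transposases, cofactors of transposition, the end-joining repair that closes the gap an element leaves behind, A-to-I editing enzymes that act on the double-stranded RNA inverted repeats can form, and sensors of such RNA. Of 33 listed genes 22 matched a gene in the files, under 23 identifiers, of which 16 passed the filter. edgeR called 1 lower and 0 higher with the FZNF MO, against 2.18% and 3.27% of all tested features, and the median log2 fold change was -0.07.

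The gene that fell was hmgb1a (ENSDARG00000099175), which encodes a high mobility group DNA-bending protein whose mammalian counterpart HMGB1 is a cofactor of Sleeping Beauty transposition. It had 177, 227 and 245 CPM in FZNF MO replicates 1 to 3, against 491, 447 and 294 CPM in scrambled MO replicates 1 to 3. All FZNF MO libraries were below all scrambled MO libraries, and the log2 ratios were -1.47, -0.98 and -0.26 in pairs 1, 2 and 3. The log2 fold change was -0.91 (SE 0.18, adjusted p = 0.0124). The call was lost without the pairing (adjusted p = 0.0852), with the collection day in its place (adjusted p = 0.127) without pair 2 (adjusted p = 0.207) and in each of the 6 fits that had no pairing and left out 1 library (adjusted p from 0.0516 to 0.321), with the log2 fold change between -1.21 and -0.62 throughout. Over all the alternatives its adjusted p ranged from 1.49e-06 to 0.321. Its paralog hmgb1b had 308, 319 and 307 CPM with the FZNF MO, against 329, 339 and 277 CPM with the scrambled MO (log2 fold change -0.01, SE 0.10, adjusted p = 0.967). The related hmgb2b, the most abundant of the list, had an estimate of -0.21 (SE 0.10, adjusted p = 0.275).

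Among the end-joining genes, prkdc, which encodes the catalytic subunit of DNA-dependent protein kinase, had 37.0, 36.4 and 31.4 CPM with the FZNF MO, against 26.7, 25.5 and 27.2 CPM with the scrambled MO. Its groups did not overlap, and it did not pass the test (log2 fold change 0.40, SE 0.16, adjusted p = 0.183). xrcc5 and xrcc6, which encode the Ku proteins that hold broken ends, had log2 fold changes of 0.07 (SE 0.13) and 0.04 (SE 0.16). The other tested end-joining genes had estimates below 0. These were -0.29 (SE 0.30) for xrcc4, -0.14 (SE 0.22) for lig4, -0.19 (SE 0.31) for nhej1 and -0.34 (SE 0.30, adjusted p = 0.590) for dclre1c. The groups of dclre1c did not overlap either, with the FZNF MO lower. The zinc finger gene pogza, whose protein carries a domain derived from a pogo-like transposase, had 139, 121 and 131 CPM with the FZNF MO, against 106, 99.9 and 111 CPM with the scrambled MO (log2 fold change 0.30, SE 0.11, adjusted p = 0.144), while its paralog pogzb had an estimate of -0.21 (SE 0.14, adjusted p = 0.429). Of the editing genes, adarb1 (ENSDARG00000003544), which encodes another editing enzyme, had 10.8, 1.75 and 3.597 CPM with the FZNF MO, against 2.23, 1.89 and 2.63 CPM with the scrambled MO, with log2 ratios of 2.22, -0.11 and 0.43 in pairs 1 to 3 (estimate 0.91, SE 0.47, adjusted p = 0.317). A second adarb1 entry (ENSDARG00000041609) had log2 ratios of 0.90, 1.20 and -1.88 in pairs 1 to 3 (estimate 0.17, SE 0.53, adjusted p = 0.899). The gene adar, which encodes the main editing enzyme, had an estimate of 0.22 (SE 0.14, adjusted p = 0.405). Of the sensing genes, eif2ak2, which encodes a kinase activated by double-stranded RNA, was below the count filter. It had 8, 5 and 9 counts in FZNF MO replicates 1 to 3, against 3, 0 and 0 in the scrambled MO libraries. Its groups did not overlap, at counts too low to be tested. For this and the other host genes, groups that did not overlap compare with 8.47% of all tested features in each direction. The only sensing gene that passed the filter, tlr3, had an estimate below 0 (log2 fold change -0.75, SE 0.52, adjusted p = 0.472). Its levels were 1.78, 1.75 and 1.08 CPM with the FZNF MO, against 2.63, 1.63 and 3.78 CPM with the scrambled MO. The groups of dhx58, pkz and mavs, all below the filter, overlapped. The gene ifih1, which encodes a sensor of long double-stranded RNA, had 0 counts in every library.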

How the data were processed

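Strand-specific poly(A) libraries of 3 FZNF MO and 3 scrambled MO embryo pools were grouped from the sample labels. The authors mapped reads to GRCz11 with STAR 2.7.5a (FastQC 0.11.9 for quality) and counted Ensembl genes, their FZNF models and TE families with TEcount in its multimapper mode. The deposited values are raw counts per feature, used as deposited. The strand setting of the counting is not given in the sources used here. Of the per-sample columns, 0 were left out.

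Low counts were filtered with filterByExpr by condition, libraries scaled by TMM, and all 17804 features tested with edgeR 4.0.16 (R 4.3.3), with replicate number as a block and condition as terms. P-values were adjusted over all of them. Standard errors come from the log2 fold change and F, and log2 ratios within pairs use a prior count of 2. The Methods describe injections repeated in triplicate. Over all tested features, deviations from group means correlated within same-numbered pairs (r = 0.45, 0.33 and 0.24), and r ranged from -0.32 to 0.06 otherwise. The numbers were therefore taken to pair the libraries. Over Tc1/Mariner families with a mean count of at least 50, r was 0.35, 0.08 and 0.28 in pairs 1 to 3 and -0.28 to 0.05 otherwise. Pair 2 was thus hardly set apart in these families. No 2 libraries agreed within sampling noise (smallest chi-square per degree of freedom, 22.2). A library is a pool of embryos, not a single embryo. With the replicate block, level differences shared by a pair are taken out. edgeR p-values and intervals then rest on the variation left around the fit, which is moderated with that of the other features. The SE of a family is thus not the spread of its own pairs alone. The permutation tests ignore the pairing and rest on the spread between libraries.

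The members and lists were chosen with earlier results of these data known. Named families were all called members, the 6 of highest mean CPM, the 6 largest estimates in each direction (mean count at least 50, same direction in 3 of 3 pairs), the leading family of each superfamily with at least 5 tested, and those at the count limit. Named host genes were those called and the next 4 by smallest p. Paralogs, Mariner-18N1_DR, the end-joining genes other than prkdc, adar, the second adarb1 entry and sensors were added after their values were seen. Some host symbols were replaced by current ones once the counts could be read. Alternatives were the fit with no block or with the day of collection as block, factors by RLE or by TMM on Ensembl genes alone, DESeq2 1.42.0, 2 other count filters, no fold threshold, and each pair or library left out. The scripts were tested on simulated data.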

Additional observations from a re-analysis of the deposited data

How the results depend on the processing

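Among 17 alternatives, edgeR or DESeq2 called 0 Tc1/Mariner families in 15, and leaving out pairs or single libraries gave 0 to 1 higher and 0 to 1 lower. The 1 higher was Mariner-21_DR without pair 1 and the 1 lower was Tc1-8_DR without pair 3. Those 2 fits called 713 of 17918 and 2185 of 18264 features. The median log2 fold change of the families was -0.05 to 0.06 with a pair left out and the block kept, -0.01 with all libraries and no block, and -0.12 to 0.12 with a single library left out and no block, where both choices changed at once. Of the host list, 0 genes were called lower without the replicate block, 0 with the collection day as the block, and 0 to 1 when pairs or libraries were left out. Without the block edgeR called 144 of 17804 features in all, against 971 with it. With the day as the block it called 131, and without pair 2 it called 162 of 18223. The fits that left out a library and the block together called 39 to 249 features. In all these fits so few features were called that 0 families tells little. The cause of these changes was not tested. With TE counts as the denominator the Tc1/Mariner share was lower with the FZNF MO, a difference of -0.21 percentage points (exact permutation test, p = 0.5), the reverse of the main direction. Without single pairs the difference was -0.0012 to 0.0182 percentage points of library counts and -0.035 to 0.131 points of DNA transposon counts.

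Of 352 alternative log2 fold changes of the 22 named families, 330 kept their direction and their side of the threshold, 2 passed it and 20 changed sign. Of the 20, 6 came from leaving out a pair with the block kept and 14 from fits that left out a library and the block together. Dropping the block alone turned 0. The ranges over both kinds of fit were -0.04 to 0.22 for Mariner-N38_DR, -0.124 to 0.081 for TDR2, -0.13 to 0.17 for TC1DR3, -0.12 to 0.12 for TC1DR2, -0.17 to 0.11 for DNA-N43_DR, -0.503 to 0.022 for Mariner-N28_DR and -0.470 to 0.037 for Mariner-N34_DR. With all libraries, no family was called with the replicate block or without it, and few features of any kind were called without it.

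Intervals were wide for families of few counts. Counts summed over all copies of a family cannot show a change of single copies, and copies inside genes were not told apart from others.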
